A study of Mus musculus with 4 samples.

Results

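The 10 genes described here encode the postsynaptic side of the neuromuscular junction: the muscle acetylcholine receptor subunits Chrna1, Chrnb1, Chrnd, Chrng and Chrne, the kinase Musk with its partners Lrp4 and Dok7, the scaffold Rapsn, and Agrn. They were chosen by function, as the rows of the deposited expression table that carry these gene symbols. Earlier results of these data were known when the choice was made. All 10 were found among the 24445 genes of the table. The RNA came from primary myoblasts, grown in culture from satellite cells, the muscle stem cells, that had been sorted from mouse hindlimb muscle. WT myoblasts came from wild type C57BL/6 mice, and Tet2 KO myoblasts from mice of the labelled strain C57BL/6 in which exon 3 of Tet2, a gene for an enzyme that oxidises methylated cytosine, had been deleted constitutively. Both groups were kept in the same proliferation medium, no agent is named for either, and each had 2 libraries. The labels give neither age nor sex, the study's methods name young adult male mice for all experiments unless stated otherwise, and whether each library came from 1 animal is not given in the sources used here.

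At the junction between motor nerve and muscle, agrin released by the nerve binds LRP4, which activates the receptor tyrosine kinase MuSK. DOK7 binds MuSK inside the cell and keeps it active, and rapsyn, the product of Rapsn, ties the acetylcholine receptors together in dense clusters. Fetal and denervated muscle builds its receptor with the gamma subunit, which the epsilon subunit replaces after birth. The receptor genes are textbook targets of the myogenic factors MyoD and myogenin, which bind E-boxes, and the synaptic expression of the epsilon gene depends on an N-box, a site for factors of the Ets family.

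To show where such letters lie, the 250 bases before the annotated start site were taken from RefSeq promoters of build GRCm38.p6, a later build than that of the expression table. Of the 10 genes, 7 had an entry, with 9 start sites between them; Chrnd, Rapsn and Lrp4 had none. The sequences of 3 genes are shown because they set side by side the gene with the lowest Tet2 KO to WT ratio (Chrng), the most abundant one (Chrna1) and the one near the detection limit (Chrne). They run 5′ to 3′ toward the start site, and capitals mark each E-box, CANNTG, and in Chrne also the N-box core, CCGGAA. Chrng is read from chr1:87205561-87205810 on the plus strand, Chrna1 from chr2:73580339-73580588 on the minus strand, and Chrne from chr11:70619195-70619444 on the minus strand.
Chrng: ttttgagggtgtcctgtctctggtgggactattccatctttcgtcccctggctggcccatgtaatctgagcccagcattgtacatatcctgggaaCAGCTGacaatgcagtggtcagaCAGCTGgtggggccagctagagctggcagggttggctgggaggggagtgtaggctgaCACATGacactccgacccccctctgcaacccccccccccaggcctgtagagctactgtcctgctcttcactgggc
Chrna1: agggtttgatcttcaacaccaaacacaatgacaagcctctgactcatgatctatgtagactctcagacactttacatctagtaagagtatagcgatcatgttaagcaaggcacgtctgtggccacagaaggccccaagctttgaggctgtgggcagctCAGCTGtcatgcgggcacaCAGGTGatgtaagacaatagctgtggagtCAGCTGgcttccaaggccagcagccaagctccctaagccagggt
Chrne: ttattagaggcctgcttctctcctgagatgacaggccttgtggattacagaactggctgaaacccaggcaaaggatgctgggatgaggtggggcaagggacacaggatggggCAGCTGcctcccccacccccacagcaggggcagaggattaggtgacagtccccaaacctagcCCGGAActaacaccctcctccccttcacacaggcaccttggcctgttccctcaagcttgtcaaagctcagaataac

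Chrng, Chrna1, Chrnb1 and Musk each held 3 E-boxes in this window, which 12.2% of all 32851 RefSeq promoters reach or exceed. The canonical E-box CAGCTG stood 2 times before Chrng, at -155 and -132 from the start site, and 2 times before Chrna1, at -92 and -44. Of all promoters, 13% held this hexamer at least 1 time and 1.26% at least 2 times. Musk held 1 canonical E-box at -68, Chrne 1 at -138 and Chrnb1 none. Dok7 and Agrn had 2 annotated start sites each, with 1 and 0 E-boxes for Dok7, 0 and 1 for Agrn, and no canonical one. The N-box core, searched on both strands, occurred in 12% of all promoters. Of the 9 start sites of the 7 genes searched it stood before 1, that of Chrne, at -76. That is a share near the one of all promoters, and Chrnd, Rapsn and Lrp4 could not be searched. Chrng and Chrna1 held the same number of E-boxes and of canonical E-boxes in this window. Whether these sites bear on the ratios below was not tested. A match of letters is a description and shows no binding.

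**Figure D1:**
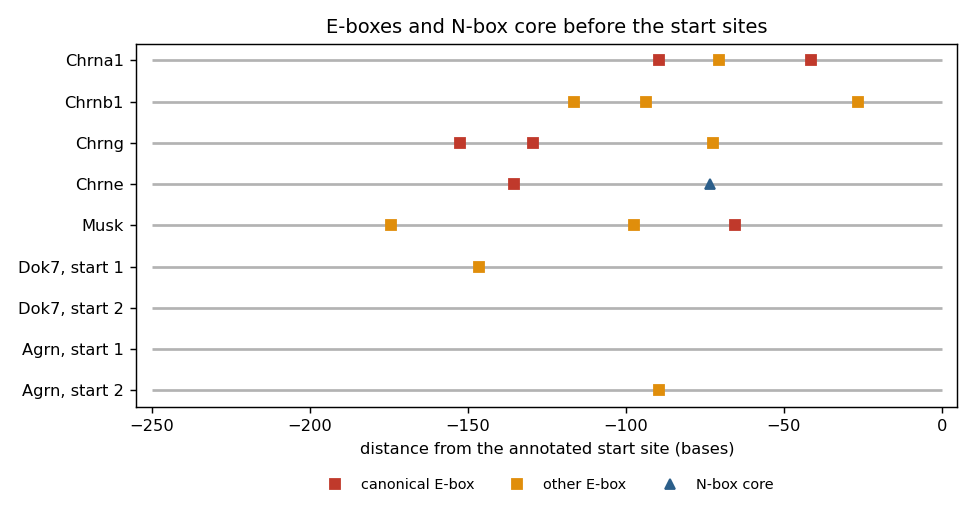
Motifs before the start sites of the 7 genes with a RefSeq promoter: the x axis is the distance from the annotated start site in bases, each line is 1 start site, red squares are canonical E-boxes, orange squares other E-boxes and the blue triangle the N-box core. Chrna1, Chrnb1, Chrng and Musk hold 3 E-boxes each, and the N-box core appears before Chrne.

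Expression was available as 1 pooled value per gene and group in FPKM, a unit that counts fragments and scales them to transcript length and to the size of the library, with no value per library. No standard deviation, n or p-value therefore stands beside any value, and no difference has a replicate check. Tet2 itself had 6.64 FPKM in WT against 5.79 FPKM in Tet2 KO, a value over all its exons that does not check the loss of exon 3. The myoblast markers Myod1 (336 FPKM in WT and 313 FPKM in Tet2 KO), Des (449 FPKM in WT and 372 FPKM in Tet2 KO) and Pax7 (11.1 FPKM in WT and 11.0 FPKM in Tet2 KO) were expressed in both groups. All 13 leukocyte markers were higher in Tet2 KO by any amount, beside 48.8% of all genes with a mean of at least 1 FPKM. Their summed level was 487 FPKM in Tet2 KO against 124 FPKM in WT, although cells bearing CD45 and CD11b had been sorted out. Ptprc, the gene of CD45, had 1.36 FPKM in WT and 5.67 FPKM in Tet2 KO. The part of the leukocyte markers in the results below was not tested. No marker of this list was at 0, the lowest being 1.36 FPKM in WT and 3.80 FPKM in Tet2 KO. Of the 9 motor nerve markers, 8 had a mean below 1 FPKM. Among these, the cholinergic Chat and Slc18a3 were listed at 0 in Tet2 KO and at or below 0.0158 FPKM in WT. Slc5a7, also cholinergic, had 0.0070 FPKM in WT and 0.0071 FPKM in Tet2 KO. Snap25, Syt2, Syp and Stmn2 had higher values in Tet2 KO, and Syn1 a lower one. The marker above that mean was Nefl, with 10.3 FPKM in WT and 12.6 FPKM in Tet2 KO.

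The receptor genes Chrna1, Chrnb1, Chrnd and Chrng and all 5 clustering genes were expressed in the myoblast cultures of both groups. Chrne was close to undetected. The same cultures expressed genes of differentiated muscle, such as Acta1 with 629 FPKM in WT and 207 FPKM in Tet2 KO. Which cells of a culture held the transcripts of the synapse genes cannot be told from bulk RNA. In WT the order of levels was Chrna1, Chrnb1, Chrng, Rapsn, Dok7, Chrnd, Musk, Agrn, Lrp4 and Chrne, from 206 FPKM down to 0.0252 FPKM. Chrng, Rapsn and Dok7 lay within 1.02% of each other there, which is inside their counting error. In Tet2 KO the order was Chrna1, Dok7, Chrnb1, Rapsn, Chrnd, Musk, Chrng, Agrn, Lrp4 and Chrne. Chrng moved from the 3rd place to the 7th, Dok7 from the 5th to the 2nd, and 5 of the 10 genes kept their place. The steps between low values put 1 fragment at about 0.0182 FPKM in WT and 0.0188 FPKM in Tet2 KO for a 1 kilobase transcript. With the length of the longest annotated coding transcript, the 9 expressed genes rested on about 2600 to 49700 fragments per group. Counting alone then gives an error of 0.45 to 2.0% per value and of 0.0095 to 0.034 on a log2 ratio. Where shorter forms were expressed, the fragments would be fewer and this error larger. The spread between libraries, which cannot be seen here, comes on top of it.

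**Figure D2:**
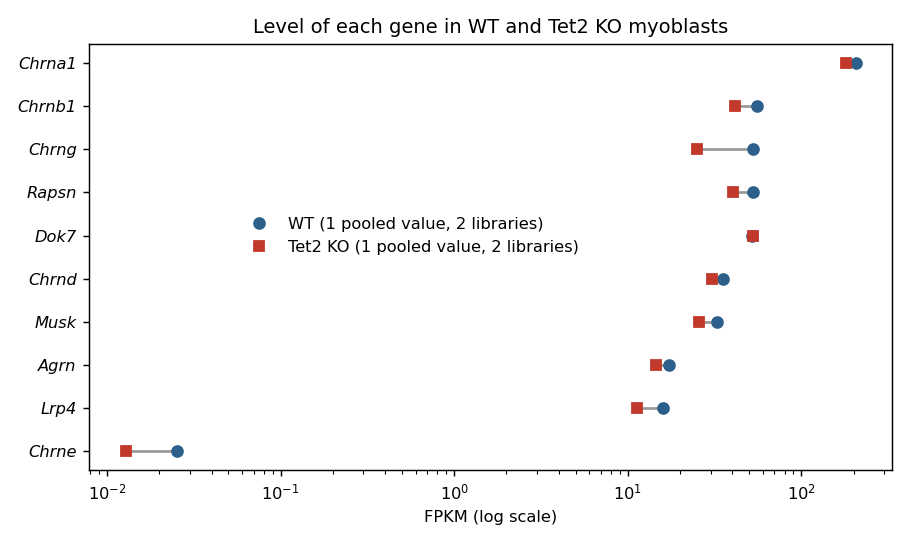
Levels of the 10 genes: the x axis is FPKM on a log scale, circles are the pooled WT value and squares the pooled Tet2 KO value of 2 libraries each, with no error because 1 value per group was deposited. Chrng shows the widest gap among the 9 expressed genes, Dok7 has nearly equal values, and Chrne lies far below the other genes.

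Chrng, which encodes the fetal gamma subunit, differed most. It lies on chromosome 1 from 89102386 to 89108410 of mm9, and its longest annotated coding transcript has 12 exons. It had 52.8 FPKM in WT against 25.2 FPKM in Tet2 KO, so that the Tet2 KO level was 47.8% of the WT level. On the log2(FPKM + 1) scale, used for all ratios below and always Tet2 KO over WT, the ratio was -1.04, with a counting error of 0.034. A gene was counted as lower or higher when this ratio reached 2-fold and the mean of both groups was at least 1 FPKM. By this rule Chrng was the 1 gene of the 10 that counted as lower, and none counted as higher. Of the 11692 genes with that mean level, 1.21% were at least 2-fold lower and 2.08% at least 2-fold higher. Chrng passed the limit by 0.037, about its counting error, so its place on that side of the limit is not secured by these values. Only 1.16% of the 11692 genes had a lower ratio.

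The other subunits of the receptor were closer to their WT level. Chrna1, the gene of the alpha subunit, which holds the main part of the acetylcholine binding site, lies on chromosome 2 from 73401338 to 73418395 and has 9 exons in its coding transcript. It had 206 FPKM in WT against 181 FPKM in Tet2 KO, 87.7% of the WT level and a ratio of -0.19. Chrnd, the gene of the delta subunit, lies on chromosome 1 from 89087172 to 89096645 and had 35.2 FPKM in WT against 30.6 FPKM in Tet2 KO, 87.0% of the WT level and a ratio of -0.19. Chrnd and Chrng are neighbours on the same strand, 5740 bases apart, yet Chrnd kept a larger part of its WT level. Chrnb1, the gene of the beta subunit, lies on chromosome 11 (69597538 to 69609439) and reached 55.4 FPKM in WT and 41.6 FPKM in Tet2 KO, 75.1% of the WT level and a ratio of -0.40. None of these subunits was 2-fold lower, and their differences exceeded the counting error alone.

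Because FPKM is scaled to length, the subunits can be set side by side within a group. Chrng exceeded Chrnd in WT, at 1.499 times its FPKM, and was below it in Tet2 KO, at 0.822 times. The FPKM of Chrng relative to Chrna1 was 0.256 in WT and 0.139 in Tet2 KO. By contrast, Chrna1 stood to Chrnd as 5.87 to 1 in WT and as 5.91 to 1 in Tet2 KO. Chrng made up 15.1% of the summed FPKM of the 5 subunits in WT and 9.05% in Tet2 KO, while Chrna1 made up 59.0% and 65.0%, Chrnb1 15.8% and 14.9%, and Chrnd 10.1% and 11.0%. Chrna1 was the most abundant subunit in both groups, with over 3.7 times the FPKM of the next one in either. These are transcript levels and say nothing of the number of assembled receptors.

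**Figure D3:**
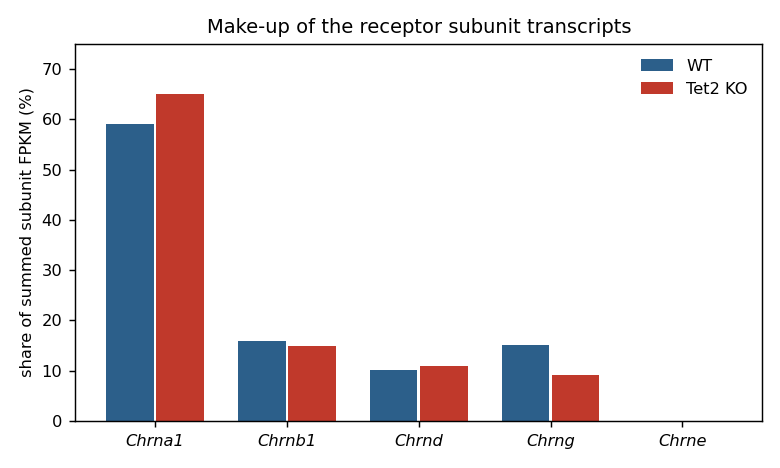
Make-up of the receptor subunit transcripts: bars give the share of each subunit gene in the summed FPKM of the 5 subunit genes, in percent, for the pooled WT and the pooled Tet2 KO value. The share of Chrng is 15.1% in WT and 9.05% in Tet2 KO, that of Chrna1 59.0% and 65.0%, and Chrne is too low to be seen.

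Chrne, the gene of the adult epsilon subunit, on chromosome 11 from 70428385 to 70432696, had 0.0252 FPKM in WT against 0.0128 FPKM in Tet2 KO. These values correspond to about 2.2 fragments in WT and 1.1 in Tet2 KO, under a floor of 3 fragments, so no ratio is given and a difference was not detectable at this depth. Of the summed FPKM of the gamma and epsilon genes, gamma made up 99.95% in either group, before the few fragments of Chrne are given any error. On the opposite strand the annotated transcript 4930544D05Rik, which had 0.121 FPKM in WT and 0.0401 FPKM in Tet2 KO, overlaps Chrne, and reads of both cannot be told apart without strand.

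Among the genes that cluster the receptor, all but Dok7 had a lower value in Tet2 KO, and none reached 2-fold. Lrp4, the agrin receptor, on chromosome 2 from 91297688 to 91354058, had 15.9 FPKM in WT against 11.4 FPKM in Tet2 KO, 71.4% of the WT level and a ratio of -0.45. Musk, the kinase that starts receptor clustering, on chromosome 4 from 58298834 to 58387175, had 32.6 FPKM in WT and 25.9 FPKM in Tet2 KO, 79.5% of the WT level and a ratio of -0.32. Both are the membrane partners through which agrin acts. Rapsn, on chromosome 2 from 90875784 to 90885886, had 52.4 FPKM in WT against 40.2 FPKM in Tet2 KO, 76.8% of the WT level and a ratio of -0.37. The annotated lincRNA Gm13778 overlaps Rapsn on the opposite strand and was not in the table under that name, so the value of Rapsn may include its reads.

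Agrn, on chromosome 4 from 155539399 to 155571597, encodes agrin, of which muscle cells make a form without the insert that gives nerve agrin its clustering activity. It had 17.2 FPKM in WT against 14.6 FPKM in Tet2 KO, 84.8% of the WT level and a ratio of -0.22. The value covers all forms of agrin together. Dok7, the adaptor that MuSK needs for full activity, on chromosome 5 from 35399415 to 35430488, had 52.2 FPKM in WT against 52.9 FPKM in Tet2 KO, a level 1.24% above WT and a ratio of 0.02 against a counting error of 0.023. It was the 1 expressed gene of the set that was not lower in Tet2 KO. Relative to Musk, Dok7 had 1.60 times the FPKM in WT and 2.04 times in Tet2 KO.

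Of the 9 genes with a mean of at least 1 FPKM, 8 had a lower value in Tet2 KO by any amount and 1 a higher one, beside 51.2% of all genes of that level that were lower and 48.8% that were higher. These genes share myogenic expression and the same 4 libraries, so they are not independent of each other. Their median ratio was -0.32, beside -0.0044 over all 11692 genes, and -0.27 over the 8 genes other than Chrng. In all genes the 5th and 95th percentiles of the ratio were -0.40 and 0.44, the 25th and 75th -0.11 and 0.09. Chrng, Lrp4 and Chrnb1 lay below the 5th percentile, Chrnb1 barely, and all but Dok7 lay below the 25th. At a 1.5-fold limit Chrng still was the 1 gene that counted as lower, beside 2.89% of all genes. A lower value in a culture can mean fewer cells that express a gene or less RNA in each, and the 2 cannot be told apart in bulk RNA.

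**Figure D4:**
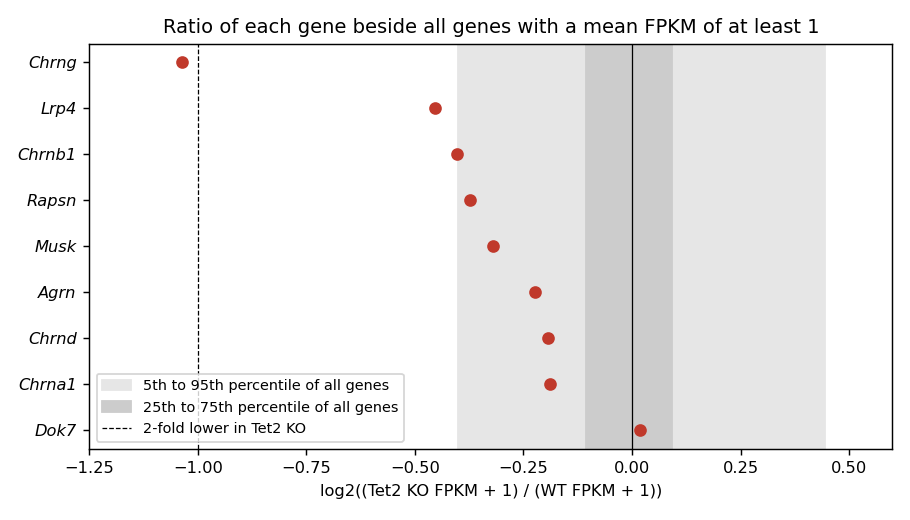
Ratios of the 9 expressed genes: the x axis is the log2 ratio of Tet2 KO over WT after adding 1 FPKM to each, each dot is 1 gene, the grey bands hold the 5th to 95th and the 25th to 75th percentiles of all 11692 genes at or above a mean of 1 FPKM, and the dashed line marks 2-fold lower. Chrng lies at -1.04, apart from the other 8 genes, which lie between -0.45 and 0.02.

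Next, regulators of these genes were set beside them. Of 17 genes of transcriptional control, 13 had a mean of at least 1 FPKM, with a median ratio of -0.11. Beside 1.21% of all 11692 genes at least 2-fold lower in Tet2 KO and 2.08% higher, 2 of the 13 were lower and none higher. The 2 were Myog, the gene of myogenin, with 554 FPKM in WT against 268 FPKM in Tet2 KO and a ratio of -1.04, and Erbb3, a receptor chain for neuregulin, with 24.3 FPKM in WT and 11.2 FPKM in Tet2 KO and a ratio of -1.05. Chrng thus stood at 0.0940 times the FPKM of Myog in Tet2 KO and at 0.0953 times in WT. The other expressed subunits did not keep their proportion to Myog. In Tet2 KO, Myog was at 48.4% of its WT level, whereas Chrna1, Chrnb1 and Chrnd were at 87.7%, 75.1% and 87.0%. Such a level was not particular to Chrng, as Erbb3 was at 46.3% of its WT level. Ckm, a gene of the differentiation list below, was at 48.3%. A link between Myog and any of these genes was not tested. Erbb2, which pairs with ErbB3 to signal, had a ratio of -0.43. Gabpa and Gabpb1, whose products form the factor that binds the N-box, had ratios of 0.06 and 0.20, the second being the highest of the list, and Etv5, another Ets factor of the junction, had 16.7 FPKM in WT against 16.6 FPKM in Tet2 KO. Runx1, a factor induced by denervation, had a ratio of -0.19.

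The 14 genes of muscle differentiation, Myog again among them, had a median ratio of -1.22. Of these, 10 were at least 2-fold lower, Myog included, beside 1.21% of all genes. The ratios of the 14 ran from -1.92 for Tnnc2, fast troponin C, to -0.92 for Actc1, cardiac actin, which fetal muscle also makes. Chrng, at -1.04, lay inside this range, with 10 of the 14 below it and 4 above it. The other 8 expressed synapse genes all lay above the 14, since the lowest of them, Lrp4, was at -0.45. That list was chosen with its values known from earlier results of these data, so the gap is a description. The 6 myoblast markers had a median ratio of -0.10 and none was 2-fold lower. Of these, Myod1 and Myf5 are also in the transcriptional control list.

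Genes of the clustering pathway beyond the 10 were, with the exception of Fyn, within 1.5-fold of their WT level on the log2(FPKM + 1) scale. All 18 genes of clustering signalling had a mean of at least 1 FPKM. By any amount, 10 were lower and 8 higher, a split close to the 51.2% and 48.8% of all genes. None of the 18 reached 2-fold, beside 1.21% of all genes lower and 2.08% higher, and their median ratio was -0.01. The lowest was Fyn, a Src family kinase that acts on the receptor clusters, with 27.7 FPKM in WT against 15.5 FPKM in Tet2 KO and a ratio of -0.80. The highest was Prss12, neurotrypsin, a protease that cleaves agrin, with 1.35 FPKM in WT and 2.40 FPKM in Tet2 KO and a ratio of 0.53. Its Tet2 KO level was 177% of its WT level, which is past 1.5-fold without the added 1 FPKM. The 9 measured genes of receptor assembly and glycosylation ranged from -0.05 for Unc50 to 0.20 for Pdia3, with none past 2-fold and a median of 0.06.

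In the synaptic matrix and scaffold list, 15 of 17 genes had a mean of at least 1 FPKM, with a median ratio of -0.19. By any amount, 10 were lower and 5 higher, beside 51.2% and 48.8% of all genes. Only Sntb1 of this list, the gene of beta-1 syntrophin, passed 2-fold, beside 1.21% of all genes lower by that much. It had 30.8 FPKM in WT against 14.0 FPKM in Tet2 KO and a ratio of -1.08. Nid2, nidogen-2 of the basement membrane, came just short with 6.94 FPKM in WT and 2.98 FPKM in Tet2 KO and a ratio of -0.997, and it passes the limit at a lower pseudocount or as TPM. Col13a1, a transmembrane collagen of the junction, was the highest at 0.44. Utrn, the gene of utrophin, which lies over the receptor clusters, had 28.9 FPKM in WT and 27.2 FPKM in Tet2 KO. Ache, acetylcholinesterase, and Colq, its collagen tail, had means below 1 FPKM, with 0.749 FPKM in WT and 0.657 FPKM in Tet2 KO for Ache and 0.145 FPKM in WT and 0.0405 FPKM in Tet2 KO for Colq.

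**Figure D5:**
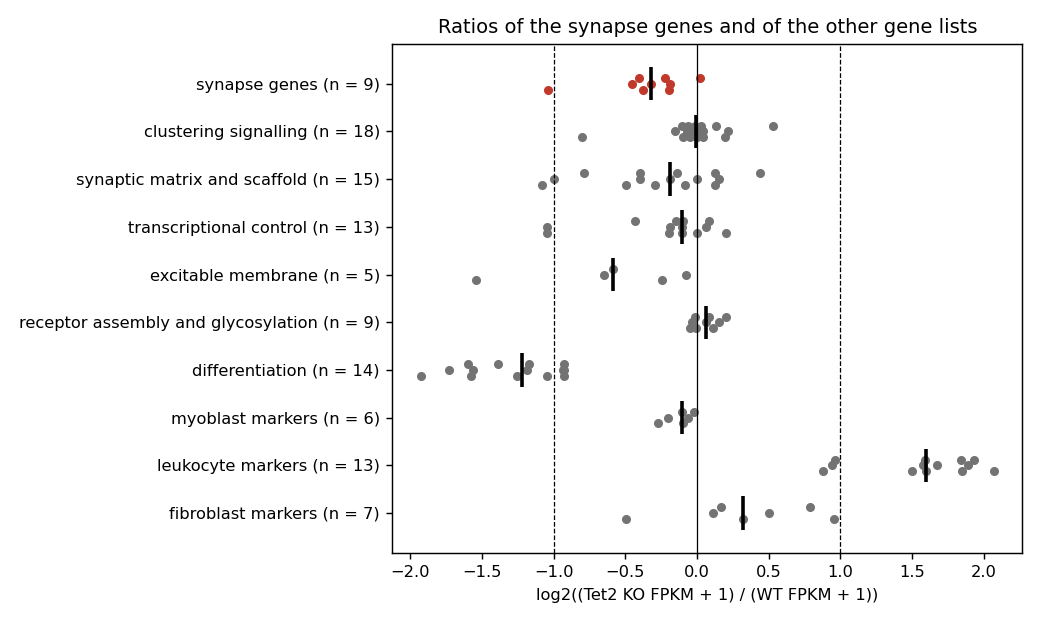
Ratios by gene list: the x axis is the log2 ratio of Tet2 KO over WT after adding 1 FPKM to each, each dot is 1 gene at or above a mean of 1 FPKM, black bars are list medians and dashed lines mark 2-fold. The synapse genes have a median of -0.32, between clustering signalling at -0.01 and differentiation at -1.22, and the leukocyte markers lie at a median of 1.60.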

How the data were processed

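RNA libraries were prepared with the TruSeq RNA kit v2. According to the study's methods, the authors cleaned the reads of adapters and of low quality, mapped the pairs to mm9 with TopHat2 2.0.13 and estimated expression with Cuffdiff 2.2.1; the gene annotation and any use of strand are not given in the sources used here. The deposited FPKM values were 1 per gene and group, taken here to combine its 2 libraries. The table also holds the authors' own comparison (log2 fold changes, test statistics, p-values and q-values), which was not used, so no test was run.

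From the deposited FPKM, log2((Tet2 KO + 1) / (WT + 1)) was computed, and genes were counted at 2-fold and a mean of at least 1 FPKM; the pseudocount understates low genes. Members and lists were chosen with earlier results of these data known. The genes named were the 10 members, the genes of each list past 2-fold, its lowest and highest gene, and the nearest genes to the most abundant member; other genes were named for their known role after their values were seen. The symbol Tmem35 of the assembly list was not in the table. The value of 1 gene of the excitable membrane list is not reported here.

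Positions are those of the table (mm9), whose starts count from 0 and were raised by 1. Exons and overlaps came from GENCODE vM1 (mm9). In transcripts of at least 3000 bases with 1 annotated form, low values times length fell into steps: 77.0% (Tet2 KO) and 69.2% (WT) of 200 and 198 values lay within 0.1 step of a whole number of fragments. The step implies about 53100000 and 54900000 fragments per group if a value is the mean over libraries. Python 3.11.15, numpy 2.4.6, pandas 2.3.3 and matplotlib 3.10.9 were used.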

Additional observations from a re-analysis of the deposited data

How the results depend on the processing

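No paired analysis was possible because 1 pooled value per group was deposited; for the same reason no library could be left out. The 54 recomputed ratios of the synapse genes kept their sign and their side of 2-fold under median centring, TPM, a mean of at least 5 FPKM, no filter, and a pseudocount of 0.1 or none, as far as each gene could be computed; most of these cannot turn a sign. Chrng ranged from -1.07 to -1.03, and the median of the synapse genes from -0.35 to -0.27, including removal of each gene in turn. All genes at least 2-fold lower numbered 142, but 215 with a pseudocount of 0.1, 224 without one and 338 at 1.5-fold. Those higher numbered 243, but 334 with a pseudocount of 0.1, 341 without one and 435 at 1.5-fold. At a mean of at least 5 FPKM, 8874 genes remained, with 106 lower and 109 higher. The matrix and scaffold list went from 1 to 2 genes lower with a pseudocount of 0.1, with none and with TPM, and to 3 at 1.5-fold. At 1.5-fold clustering signalling had 1 gene lower and the excitable membrane list 3. With a pseudocount of 1 on both subunits, the gamma share was 96.3% in Tet2 KO and 98.1% in WT. Depth is estimated, and the spread between libraries is unknown.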

Other observations

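Genes of the excitable muscle membrane, which carry the signal on from the receptor, were examined as well. Of 8 such genes, 5 had a mean of at least 1 FPKM, with a median ratio of -0.59. All 5 were lower in Tet2 KO by any amount, beside 51.2% of all genes of that level. Cacna1s, the voltage sensor of excitation-contraction coupling, was the 1 gene past 2-fold, beside 1.21% of all genes lower by that much. It had 16.2 FPKM in WT against 4.89 FPKM in Tet2 KO and a ratio of -1.54. Ncam1, an adhesion molecule of fetal and denervated muscle, had 79.2 FPKM in WT and 50.2 FPKM in Tet2 KO. Scn4a, the sodium channel of adult muscle, was not among the 5, as its mean was below 1 FPKM. It had 1.13 FPKM in WT and 0.473 FPKM in Tet2 KO.

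Of 11 neuronal acetylcholine receptor subunits, only Chrna7 had a mean of at least 1 FPKM, with 2.496 FPKM in WT against 2.86 FPKM in Tet2 KO. The genes nearest to Chrna1 over log2(FPKM + 1) in the 2 pooled values were Tceal9, Gpi1 and Pkig, at distances of 0.023, 0.057 and 0.059, which says only that their levels and ratios were alike. Of the 9 motor nerve markers only Nefl reached a mean of 1 FPKM, with 10.3 FPKM in WT and 12.6 FPKM in Tet2 KO. The 7 Schwann cell markers summed to 6.47 FPKM in WT against 6.09 FPKM in Tet2 KO. The 8 fibroblast markers summed to 178 FPKM in WT and 207 FPKM in Tet2 KO, of which Col3a1 alone gave 152 and 171 FPKM. Of the 7 measured ones, 6 were higher in Tet2 KO by any amount, beside 48.8% of all genes. Dcn was at 223% of its WT level, Col1a2 at 181%, Pdgfra at 180%, and Postn, the lower one, at 67.6%. The 3 endothelial markers summed to 3.07 FPKM in WT and 2.81 FPKM in Tet2 KO.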
